A study of Mus musculus with 9 samples.

Results

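Intermediate filaments are the rope-like polymers that give cells and nuclei mechanical strength, and their subunit genes differ by cell type. Cells of mesenchymal origin, such as the renal stroma, build filaments from vimentin (*Vim*), and nestin (*Nes*) and synemin (*Synm*) join vimentin filaments and cannot build an ordinary filament alone. Simple epithelia, such as the ureteric tree and the nephron tubules, build theirs from equal parts of the type II keratin 8 (*Krt8*) and the type I keratin 18 (*Krt18*), which pair as obligate partners. All nucleated cells hold a meshwork of lamins under the inner nuclear membrane, where *Lmna* encodes the A-type lamins A and C, and *Lmnb1* and *Lmnb2* encode lamins B1 and B2.

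These 8 genes were chosen by name from the deposited table of 24138 loci, and each was found at a locus of its own. RNA from whole kidneys at E15.5 (embryonic day) was sequenced in 9 libraries, 3 for each of 3 genotypes, on a C57Bl6/J background. *Foxd1*GC/+;*Ntn1*fl/fl kidneys (homozygous, MUT) carried the GFP-Cre knock-in at *Foxd1* and 2 floxed *Ntn1* alleles. *Foxd1*GC/+;*Ntn1*fl/+ kidneys (heterozygous, HET) carried the same knock-in and 1 floxed allele. The *Ntn1*fl/fl kidneys (wild type by label, WT) held 2 floxed alleles and no Cre. *Ntn1* encodes the secreted guidance cue netrin 1. The Cre is driven from *Foxd1*, a gene of stromal progenitors, so deletion is limited to cells that have used that promoter, and every MUT and HET kidney also lacked 1 intact *Foxd1* allele. HET was the control of the study's RNA-seq for this reason, and its qPCR used *Ntn1*fl/fl controls. A difference from WT combines Cre, *Foxd1* dosage and *Ntn1* deletion.

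Values are FPKM, fragments per kilobase of transcript scaled to the size of the library, so levels can be set side by side between genes. Summed FPKM ran from 453753 in WT-1 to 545598 in WT-2. The number of reads is unknown, and relative depth was estimated from the most frequent ratio to WT-1 at loci with the lowest nonzero FPKM. This placed WT-2 and MUT-3 at 0.570 and 0.616 of the depth of WT-1, with the other libraries between 0.908 and 1.28. The estimate is indirect and carries any scaling in the deposited values. *Ntn1*, the targeted gene, had 24.3±5.75 FPKM in WT, 13.6±2.53 in HET and 12.8±3.22 in MUT (mean±s.d., n=3), and its HET and MUT libraries overlapped. These values cover the whole locus in whole kidney, and reads over the floxed part were not counted separately. The kidney label was matched by 7 markers of nephron progenitors, which summed to between 246 and 360 FPKM, and by 9 markers of the ureteric epithelium, at 189 to 232 FPKM. Some HET libraries also held RNA of other organs. The 9 hepatocyte markers, all detected, summed to 837 FPKM in HET-2 and to between 33.7 and 59.6 FPKM in the other 8 libraries. The 7 skeletal muscle markers summed to 60.2 FPKM in HET-3 and to between 2.29 and 6.16 FPKM elsewhere. HET-1 was high for neither list, at 46.3 and 3.36 FPKM.

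The start regions of *Vim*, the member with the largest difference between genotypes, and of the paired keratins are shown because these genes are the ones the comparisons below turn on. All positions here and below are on mm10 (GRCm38), and all 8 genes are protein coding in GENCODE M21. Each line gives the 250 bases before the RefSeq transcription start (GRCm38.p6), 5′ to 3′ on the strand of the gene, and capitals mark motifs found in it.
*Vim*, chr2:13574061-13574310, plus strand: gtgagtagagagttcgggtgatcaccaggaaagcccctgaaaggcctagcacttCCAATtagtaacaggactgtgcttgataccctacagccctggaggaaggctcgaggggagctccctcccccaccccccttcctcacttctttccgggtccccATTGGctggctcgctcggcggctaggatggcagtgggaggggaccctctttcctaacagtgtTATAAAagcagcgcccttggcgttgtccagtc
*Krt8*, chr15:102004343-102004592, minus strand: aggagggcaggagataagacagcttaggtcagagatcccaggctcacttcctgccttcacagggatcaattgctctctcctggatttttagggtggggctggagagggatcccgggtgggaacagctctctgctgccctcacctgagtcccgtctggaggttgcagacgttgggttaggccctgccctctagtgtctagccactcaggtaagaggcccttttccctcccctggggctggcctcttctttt
*Krt18*, chr15:102027966-102028215, plus strand: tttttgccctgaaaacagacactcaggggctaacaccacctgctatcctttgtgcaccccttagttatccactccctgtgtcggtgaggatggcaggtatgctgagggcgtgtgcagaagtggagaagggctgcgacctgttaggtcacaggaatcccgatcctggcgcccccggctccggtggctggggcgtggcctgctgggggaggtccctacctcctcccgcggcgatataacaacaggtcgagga
The search covered the TATA box (spelled TATAAA) on the strand of the gene, and the CCAAT box (spelled CCAAT), the GC box (spelled GGGCGG), the AP-1 site (spelled TGANTCA) and the E-box (spelled CACGTG) on both strands. In *Vim*, a TATA box began 32 bases before the start, and CCAAT boxes began 196 and 94 bases before it, the nearer of them on the other strand. In *Krt8*, the only match was a TATA box that began at the last base shown, 1 base before the start, and ran past it. In *Krt18*, none of the 5 motifs was found in these letters. Over all 32851 RefSeq windows of 300 bases, from 250 before to 50 after the start, 8.32% held the TATA box, 37.4% the CCAAT box, 35.7% the GC box, 7.81% the AP-1 site and 7.15% the E-box. The GC content of the 250 bases was 58.4% for *Vim*, 58.0% for *Krt8* and 60.4% for *Krt18*, against a median of 52.4% over all windows.

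*Vim* was the most abundant of the 8 genes and *Synm* the least. The mean over all 9 libraries was 383 FPKM for *Vim*, 166 FPKM for *Lmnb1*, 77.9 FPKM for *Krt8*, 73.8 FPKM for *Krt18*, 27.7 FPKM for *Nes*, 26.6 FPKM for *Lmnb2*, 24.5 FPKM for *Lmna* and 0.597 FPKM for *Synm*. *Vim*, *Lmnb1* and *Synm* each stood clear of their neighbours in this order, with no overlap between libraries. *Krt8* and *Krt18* overlapped each other, as did *Nes*, *Lmnb2* and *Lmna*. *Vim* ranked 174th of 24138 loci by mean FPKM. It made up between 45.1% (MUT-1) and 54.0% (HET-2) of the summed FPKM of the 8 genes, the 2 keratins between 17.3% and 21.6%, and the 3 lamins between 23.5% and 32.3%. Whole-kidney RNA cannot tell fewer cells of a type from less RNA per cell, and this holds for every level below.

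**Figure D1:**
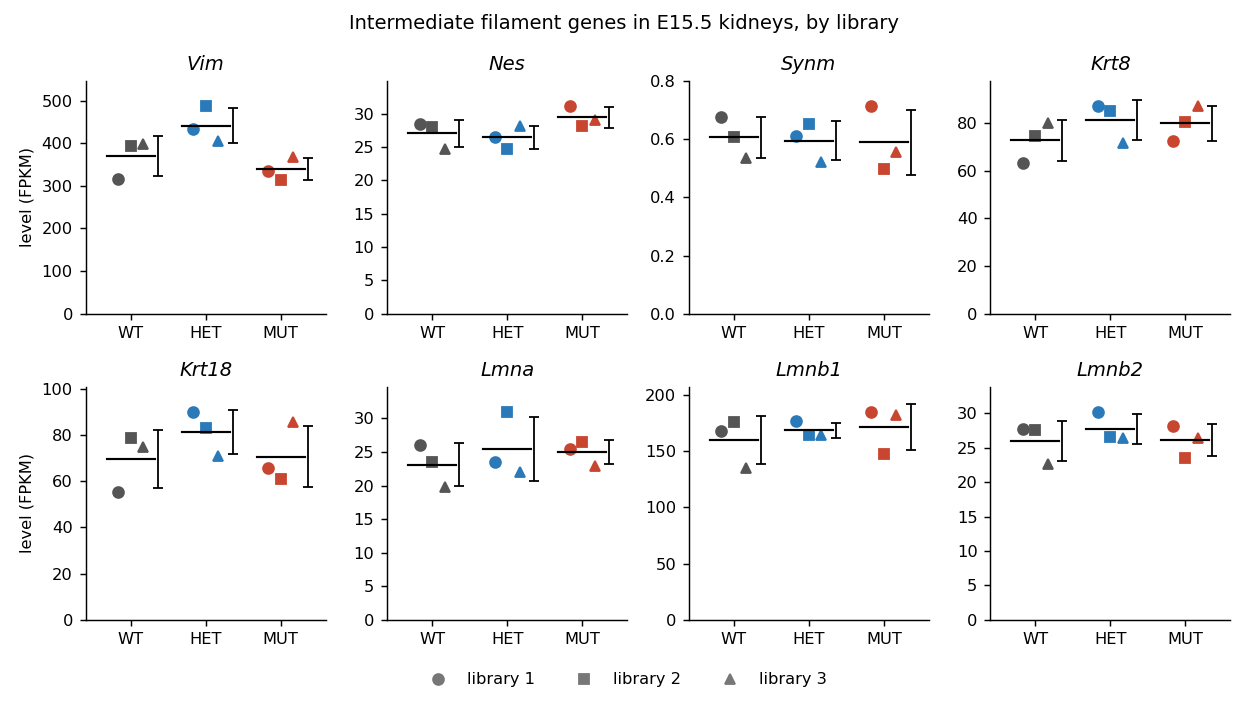
FPKM of the 8 intermediate filament genes (1 panel each, linear axis from 0) in WT, HET and MUT kidneys. Symbols are single libraries, horizontal lines are means and vertical bars are ±1 s.d. (n=3). The HET libraries of *Vim*, from 405 to 487 FPKM, sit above all 6 others, and the libraries of the genotypes overlap for the keratins and the lamins.

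The first comparison asks whether filament genes differed between kidneys in which the stroma could lose both *Ntn1* alleles and those in which it could lose 1. None of the 7 filament genes above the minimum of 5 FPKM passed the test between MUT and HET (adjusted p under 0.05 in limma), and neither did any of the 10081 loci tested, a share called of 0%. The lowest adjusted p of any locus was 0.738. At an unadjusted p under 0.05 (limma), 1 of the 7 genes was named, *Vim*, against 6.31% of all loci (636 of 10081). *Synm* lay below the minimum in every genotype and was not tested.

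*Vim* (chromosome 2, 13574311 to 13582826, plus strand in the deposited table) was the gene furthest from 0. Its 3 HET libraries, in order of number, had 432, 487 and 405 FPKM, and its MUT libraries had 335, 314 and 366 FPKM. Every MUT library lay below every HET library, which 4.5% of all loci also showed in this direction. The means were 441±42.1 FPKM (HET) and 339±26.1 FPKM (MUT). The log2 fold change was -0.38 (SE 0.14, 95% interval -0.68 to -0.08, unadjusted p=0.0179 and adjusted p=0.738 in limma). *Vim* took rank 174 of 10081 by p. The exact permutation test of the same difference gave p=0.1, the smallest that 3 libraries against 3 allow (two-sided). The libraries on which the difference rests were uneven. *Vim* was highest in HET-2, the library with hepatocyte RNA, and without HET-2 the log2 fold change was -0.31 and the unadjusted p 0.114 (limma). Without HET-2 and HET-3 together, a choice made after seeing the data, it was -0.35 (standard error 0.28, unadjusted p=0.223 in limma). That fit compared HET-1 alone with 3 MUT libraries and took HET to vary like MUT, so its p has little bearing on the libraries left out. In HET-1, which was high for neither hepatocyte nor skeletal muscle markers, *Vim* had 432 FPKM and lay above all WT and MUT libraries. Whether RNA of other organs contributed to the *Vim* values was not tested.

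**Figure D2:**
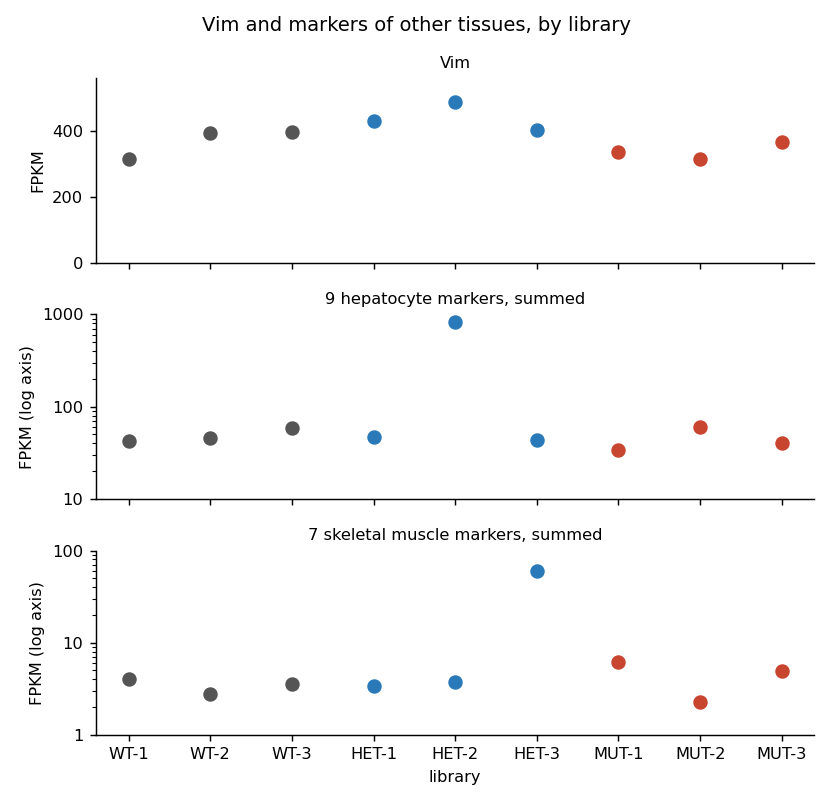
*Vim* (top, linear axis), the summed FPKM of 9 hepatocyte markers (middle, log axis) and of 7 skeletal muscle markers (bottom, log axis) in each of the 9 libraries, coloured by genotype. HET-2 stands apart for hepatocyte markers at 837 FPKM and HET-3 for skeletal muscle markers at 60.2 FPKM. *Vim* is at 432 FPKM in HET-1, which is high for neither, and a part of other tissues in the *Vim* values was not tested.

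*Nes* (chromosome 3, 87971093 to 87980451, plus strand) encodes a filament partner of vimentin found in progenitor cells and podocytes, and lay on the other side of 0. It had 26.5, 24.8 and 28.2 FPKM in the HET libraries and 31.2, 28.2 and 29.0 FPKM in the MUT libraries. Each MUT value was above each HET value, although MUT-2 and HET-3 differed by less than 0.01 FPKM, and 5.19% of all loci showed the same order. The log2 fold change was 0.15 (95% interval -0.08 to 0.38, adjusted p=0.753 in limma). Under the GC and length correction it was 0.056 and the order was lost, with MUT-1 at 26.3 FPKM below HET-1 at 28.1 and HET-3 at 29.0. *Nes* was also the steadiest of the 7 tested genes within genotypes, with a pooled s.d. of 0.09 on the log2(FPKM + 1) scale, lower than all but 9.36% of loci, against a median of 0.16. *Synm* (chromosome 7, 67730161 to 67759742, minus strand) encodes a large subunit known from muscle, and had between 0.497 and 0.715 FPKM in the 9 libraries, with no separation of any genotype.

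*Krt8* (chromosome 15, 101996711 to 102004342, minus strand) and *Krt18* (chromosome 15, 102028216 to 102032026, plus strand) are neighbours transcribed away from each other, with 23873 bases between them. *Krt8* also has 1 pseudogene named after it in GENCODE, and how the authors' counting divided reads between the copies is not given in the sources used here. *Krt18* had 89.9, 82.9 and 71.0 FPKM in HET and 65.5, 60.8 and 85.5 FPKM in MUT. MUT-3 was among the high values and HET-3 among the low ones, so that the genotypes overlapped. Its log2 fold change was -0.21 (95% interval -0.54 to 0.12, adjusted p=0.759 in limma). It was -0.11 without MUT-2, -0.13 without HET-1, -0.35 without MUT-3, -0.36 without HET-2 and HET-3, and -0.099 under the GC and length correction. *Krt18* varied most within genotypes, with a pooled s.d. of 0.24 on the log2(FPKM + 1) scale, more than 83.3% of loci. *Krt8*, its partner, had 86.9, 85.0 and 71.5 FPKM in HET and 72.4, 80.3 and 87.2 FPKM in MUT, a log2 fold change of -0.02 (95% interval -0.30 to 0.26, adjusted p=0.975 in limma) whose sign turned under quantile normalization, a GC and length correction, and without HET-1, HET-2 or MUT-1.

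*Lmnb1* (chromosome 18, 56707813 to 56753424, plus strand) was the predominant lamin by RNA, with 176, 164 and 165 FPKM in HET and 185, 148 and 182 FPKM in MUT. The genotypes overlapped, with a log2 fold change of 0.02 (95% interval -0.27 to 0.31). *Lmnb2* (chromosome 10, 80901363 to 80918245, minus strand) had 30.2, 26.6 and 26.4 FPKM in HET and 28.2, 23.6 and 26.4 FPKM in MUT, a log2 fold change of -0.09 (95% interval -0.33 to 0.16), which was -0.018 without MUT-2 and -0.025 without HET-1. *Lmna* (chromosome 3, 88481148 to 88503352, minus strand), whose products stiffen the nucleus, had 23.5, 30.9 and 22.1 FPKM in HET and 25.5, 26.5 and 23.0 FPKM in MUT, a log2 fold change of -0.02 (95% interval -0.31 to 0.28). *Lmna* was highest in HET-2, where hepatocyte markers were also highest, and without HET-2 its log2 fold change was 0.13. The adjusted p of the 3 lamin genes ran from 0.849 to 0.980 (limma). The sign of *Lmnb1* turned without MUT-1, without MUT-3, and without HET-2 and HET-3 together, and that of *Lmna* turned without MUT-3 and under a median-ratio rescaling. Across the 7 genes, 2 lay above 0 and 5 below, with a median of -0.02, which was also the median of all loci, and 45.9% of all loci lay above 0.

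The comparison of MUT with WT, which asks about both *Ntn1* alleles and the knock-in together, named no filament gene either. Of 10096 loci tested, 0% passed the adjusted threshold, and 0.644% (65 loci) had an unadjusted p under 0.05 in limma, with 0 of the 7 filament genes among them. *Vim* had 315, 393 and 399 FPKM in the WT libraries, a mean of 369±46.6. The MUT libraries lay within or near this range, and the log2 fold change was -0.12 (95% interval -0.47 to 0.23, adjusted p=1.000 in limma), and between -0.23 (without WT-1) and -0.058 (without WT-3) when 1 library was left out. WT-1, where *Vim* was lowest in WT, and MUT-1 had the smallest FPKM sums, 453753 and 457192. The other 6 of 7 genes lay above 0, as did 48.7% of all loci, between 0.01 for *Lmnb2* and 0.14 for *Krt8*, with an adjusted p of 1.000 each in limma. Without WT-3, *Lmna* was at 0.0094, *Lmnb1* at -0.0088 and *Nes* at 0.057, and without WT-1 *Krt8* was at 0.043 and *Krt18* at -0.13. Their WT libraries ran from 24.7 to 28.4 FPKM for *Nes*, 63.4 to 80.2 for *Krt8*, 55.1 to 78.5 for *Krt18*, 19.8 to 26.0 for *Lmna*, 135 to 176 for *Lmnb1* and 22.6 to 27.7 for *Lmnb2*. WT-3 was the lowest of all 9 libraries for *Nes* and for all 3 lamins, and WT-1 for both keratins. The MUT and WT libraries overlapped for all 7 genes, and 2.65% of all loci had no such overlap.

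HET and WT differ in the *Foxd1* knock-in and in the Cre that could delete 1 *Ntn1* allele, while the floxed alleles number 1 in HET and 2 in WT. Of 10105 loci, 0% passed the adjusted threshold, and 1.07% (108 loci) had an unadjusted p under 0.05 in limma, with 0 of the 7 filament genes among them. Every HET library of *Vim* was above every WT library, a pattern that 2.15% of all loci shared. The closest pair was HET-3 at 405 FPKM and WT-3 at 399 FPKM. The log2 fold change was 0.26 (standard error 0.14, 95% interval -0.05 to 0.57, unadjusted p=0.0891 and adjusted p=0.998 in limma, exact permutation p=0.1). Under quantile normalization and under a GC and length correction the unadjusted p was 0.0310 and 0.0224 (limma), and the adjusted p stayed above 0.99. *Krt18* was at 0.23, *Krt8* at 0.16, *Lmna* at 0.13, *Lmnb2* at 0.09, *Lmnb1* at 0.09 and *Nes* at -0.03, and the genotypes overlapped for all 6. Single libraries moved these values. Without WT-1, *Vim* was at 0.15, *Krt18* at 0.078 and *Krt8* at 0.064, without WT-3 *Lmnb2* was at 3.7e-05, *Lmna* at 0.025 and *Lmnb1* at -0.028, and without HET-2 *Lmna* was at -0.013. Under the GC and length correction *Krt18* was at 0.092 and *Krt8* at 0.056, and under quantile normalization *Lmnb1* was at 0.015. With *Vim*, 6 of 7 genes thus lay above 0, against 52.4% of all loci. All 3 comparisons share libraries, so a high HET value enters both *Vim* differences.

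**Figure D3:**
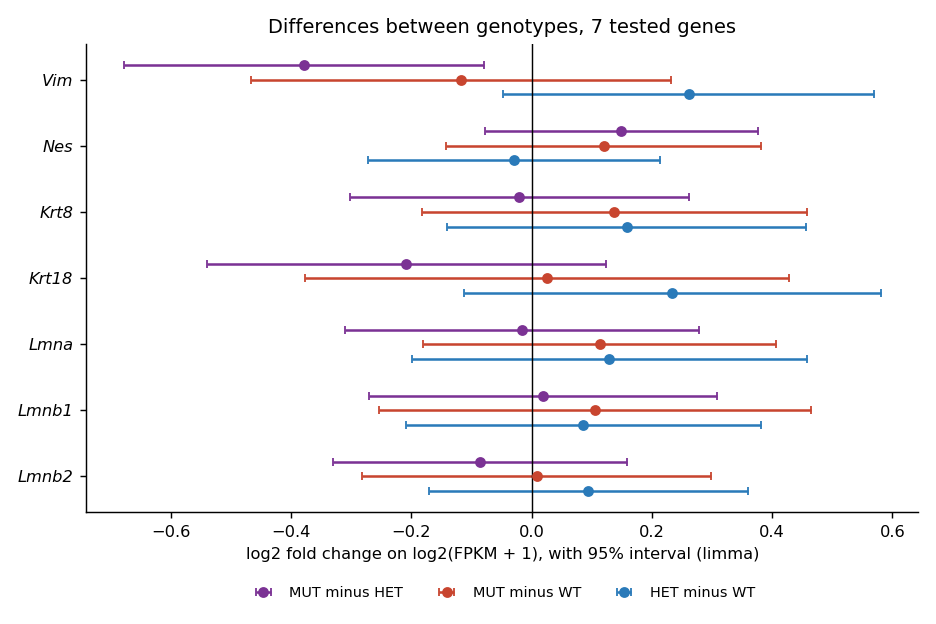
Log2 fold changes on the log2(FPKM + 1) scale with 95% intervals (limma) for the 7 tested genes in MUT minus HET, MUT minus WT and HET minus WT. The interval of *Vim* in MUT minus HET, from -0.68 to -0.08, is the only 1 of 21 that leaves out 0, and it does not allow for the 10081 loci tested.

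Over the 3 genotypes at once, *Vim* had a moderated F of 4.06 (unadjusted p=0.0468 and adjusted p=0.997 in limma) and an exact permutation p of 0.05. Of 10164 loci, 0% passed the adjusted threshold in this test, and 1.15% had an unadjusted p under 0.05. The 3 HET libraries of *Vim* were above the other 6 libraries, as at 0.689% of the loci (70). This order was kept when FPKM were rescaled by median ratios, normalized by quantiles or corrected for GC content and length, although under quantiles HET-1 and MUT-1 came to 397 and 392 FPKM. For the other members the exact permutation test over 3 genotypes gave p=0.214 for *Nes*, 0.961 for *Synm*, 0.429 for *Krt8*, 0.464 for *Krt18*, 0.700 for *Lmna*, 0.736 for *Lmnb1* and 0.636 for *Lmnb2*.

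A ratio of 2 genes in the same library does not depend on library size, and *Vim* was set against each of the 2 keratins. The ratio is not a measure of stroma against epithelium. Over the 9 libraries, *Vim* had a Pearson r of -0.49 with the 12 summed stromal markers and 0.60 with the 8 smooth muscle markers. Values of this size were not limited to these lists. *Vim* had r of 0.69 with the proliferation markers, 0.64 with the hepatocyte markers and -0.60 with the podocyte markers. A sum gives most weight to the genes with the highest FPKM, and these r were not tested. The ratio of *Vim* to *Krt8* was 4.98, 5.28 and 4.97 in WT, 4.97, 5.73 and 5.66 in HET, and 4.64, 3.92 and 4.20 in MUT. All 3 MUT libraries lay below the other 6, and the same was seen when *Vim* was divided by 1.27% of other loci (128 of 10116) and when *Krt8* divided 4.53% of loci (460 of 10163). This separation was lost under quantile normalization, where MUT-1 came to 5.03 and HET-1 to 4.81, and under the GC and length correction, where MUT-1 came to 4.78 and WT-3 to 4.25. The ratio of *Vim* to *Krt18* did not separate MUT, with 5.72, 5.01 and 5.34 in WT, 4.81, 5.88 and 5.70 in HET, and 5.12, 5.17 and 4.28 in MUT.

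The keratin partners were close to 1 to 1 in RNA. *Krt8* to *Krt18* was 1.15, 0.950 and 1.07 in WT, 0.967, 1.03 and 1.01 in HET, and 1.10, 1.32 and 1.02 in MUT. The genotypes overlapped, and MUT-2 was the library furthest from 1. *Lmnb1* made up between 74.1% and 78.6% of the summed lamin FPKM. *Lmnb2* to *Lmnb1* was 0.166, 0.157 and 0.167 in WT, 0.171, 0.162 and 0.160 in HET, and 0.153, 0.160 and 0.146 in MUT. MUT-2 was above WT-2, and all MUT libraries lay below all HET libraries, MUT-2 (0.1596) and HET-3 (0.1603) by a narrow margin. *Lmnb2* over 7.9% of other loci showed the same order, which was lost here under quantile normalization. *Lmna* to *Lmnb1* ranged from 0.126 (MUT-3) to 0.188 (HET-2). *Nes* to *Vim* was 0.0872±0.00717 in MUT, 0.0606±0.00938 in HET and 0.0745±0.0143 in WT, and every MUT library was above every HET library. MUT-1 at 0.0930 was also above WT-1 at 0.0901, and MUT-2 at 0.0896 and MUT-3 at 0.0792 were below it. *Nes* over 19.4% of other loci gave the same order of MUT and HET, and *Vim* over 54.6% of other loci gave the opposite order. *Synm* to *Vim* was 0.00152 to 0.00213 in MUT, 0.00129 to 0.00141 in HET and 0.00134 to 0.00215 in WT, so that MUT lay above HET and within the range of WT. *Synm* over 1.3% of other loci shared this order of MUT and HET. With *Vim* as the denominator the order was common, since *Vim* over 54.6% of other loci had MUT below HET. These 7 ratios are given as description.

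**Figure D4:**
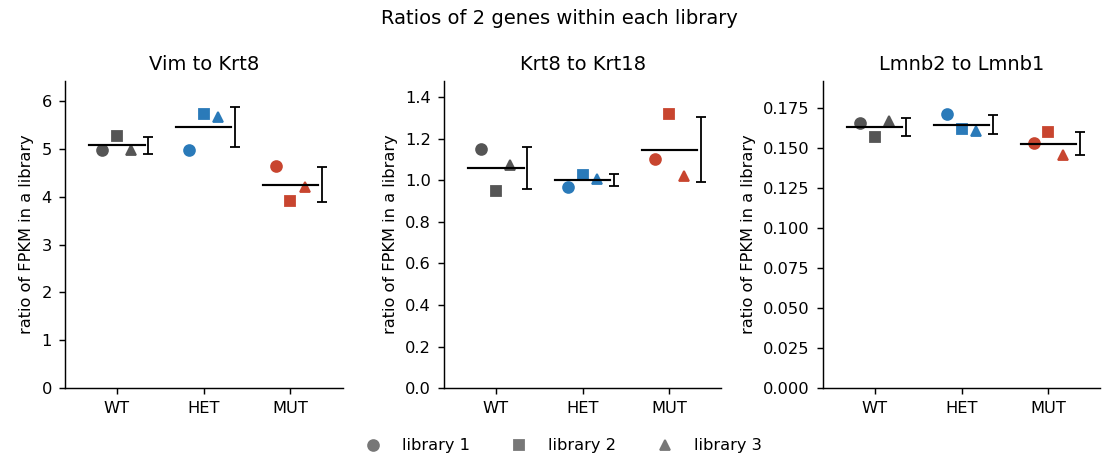
Ratios of FPKM in the same library for *Vim* to *Krt8*, *Krt8* to *Krt18* and *Lmnb2* to *Lmnb1* (linear axes from 0). Symbols are libraries, lines are means and bars are ±1 s.d. (n=3). The MUT libraries of *Vim* to *Krt8*, 3.92 to 4.64, sit below the other 6, an order that is lost under quantile normalization and under a GC and length correction.

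Genes whose products assemble together were next compared across all 9 libraries, as 28 pairs of members. *Lmnb1* and *Lmnb2* had the largest Pearson r on the log2(FPKM + 1) scale, 0.88 (exact permutation p=0.00365, adjusted over the 28 pairs 0.0945, Spearman rho 0.75 with exact permutation p=0.0255). Without WT-3 and MUT-2, the libraries furthest from the median of *Lmnb1*, r was 0.37. Leaving out the extreme libraries of 1 gene narrows its range and tends to lower r, so this value does not show what the relation rests on. *Krt8* and *Krt18* had r of 0.80 (exact permutation p=0.00962, adjusted 0.0945, rho 0.78 with exact permutation p=0.0172), and 0.65 without WT-1 and HET-3. *Krt18* was as close to *Vim*, with r of 0.80 (exact permutation p=0.0101, adjusted 0.0945, rho 0.72 with exact permutation p=0.0369), and 0.57 without WT-1 and MUT-2. *Vim* and *Nes* ran in opposite directions, with r of -0.70 (exact permutation p=0.0374, adjusted 0.262, rho -0.72 with exact permutation p=0.0369), and -0.83 without WT-1 and MUT-2. No pair passed 0.05 after adjustment, and the smallest adjusted p for rho was 0.206. After subtraction of the genotype means, r was 0.94 for the B-type lamins, 0.84 for the keratins, 0.85 for *Krt18* and *Vim*, and -0.56 for *Vim* and *Nes*. All genes in a library share its RNA, scaling and depth.

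**Figure D5:**
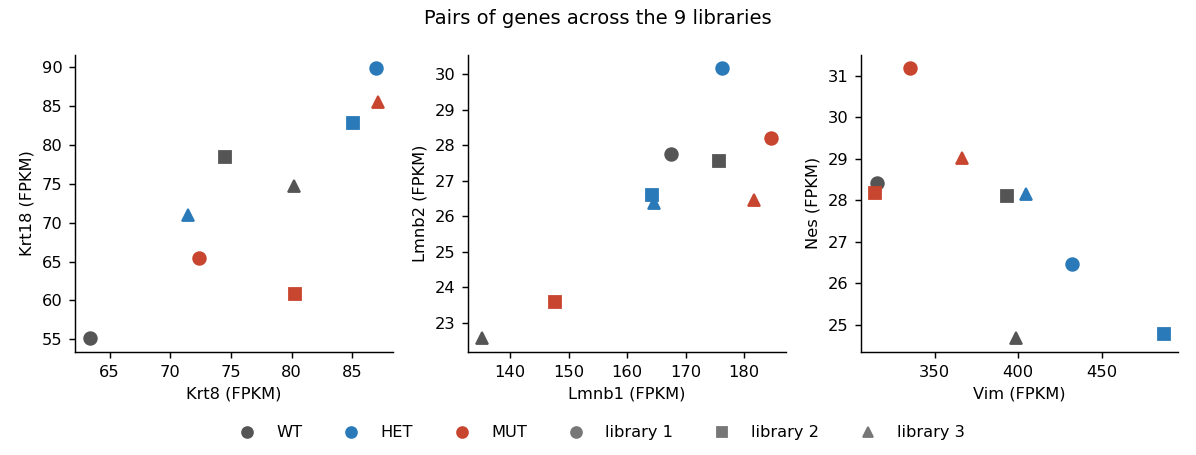
FPKM of 3 pairs of genes in the 9 libraries (linear axes that do not start at 0, colour for genotype, symbol for library number). *Krt8* and *Krt18* rank alike (rho 0.78), and *Vim* and *Nes* run in opposite directions (r -0.70). For *Lmnb1* and *Lmnb2* (r 0.88, and 0.37 without WT-3 and MUT-2), those 2 libraries lie at the lower left.

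High correlations were common across the table, and the partners were not the closest loci. *Krt18* ranked 362nd of 10164 loci by r with *Krt8*, *Krt8* ranked 1220th by r with *Krt18*, *Lmnb2* ranked 156th by r with *Lmnb1* and *Lmnb1* ranked 62nd by r with *Lmnb2*. The 2 closest loci by r over the 9 libraries were *Strada* (0.98) and *Arpc1b* (0.98) for *Vim*, *Hnrnpd* (0.97) and *Msi1* (0.96) for *Nes*, and *Lamb2* (0.98) and *Krba1* (0.97) for *Synm*. They were *Camk1* (0.94) and *Bcas2* (0.93) for *Krt8*, and *Mrto4* (0.98) and *Cfap20* (0.98) for *Krt18*. For the lamins they were the joint locus of *Adat3* and *Scamp4* (0.98) and *Gsn* (0.97) for *Lmna*, *Btbd11* (0.99) and *Fasn* (0.98) for *Lmnb1*, and *Ubqln4* (0.96) and *Chtf18* (0.94) for *Lmnb2*. *Arpc1b* encodes a subunit of the actin-nucleating Arp2/3 complex and *Gsn* the actin-severing protein gelsolin.

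Other filament genes were described from lists of gene names, chosen with earlier results of these data known. Of 17 other keratins, 3 passed the minimum of 5 FPKM, *Krt7*, *Krt19* and *Krt23*, and 0 passed the test in any comparison. The other 14 had means under 5 FPKM in all genotypes, and *Krt16* was listed at 0 in all 9 libraries. *Krt7* and *Krt19*, keratins of ductal epithelium, had log2 fold changes between MUT and HET of -0.05 and -0.02, and *Krt23* was at -0.15. The values of *Krt19* by library were chosen for display after they were seen. *Krt19* had 18.0, 21.7 and 21.5 FPKM in WT, 32.1, 33.8 and 24.4 FPKM in HET, and 25.1, 30.6 and 33.1 FPKM in MUT. All 6 libraries with the knock-in were thus above all 3 WT libraries, as at 0.256% of the loci (26 of 10164), at log2 fold changes of 0.53 in HET minus WT (unadjusted p=0.00339, adjusted p=0.998 in limma) and 0.51 in MUT minus WT (unadjusted p=0.00423, adjusted p=1.000 in limma). Of 10 other cytoplasmic filament genes that are not keratins, 1 passed the minimum, *Des*, the muscle filament desmin. *Des* had 14.4, 18.6 and 15.0 FPKM in WT, 19.6, 20.0 and 22.1 FPKM in HET, and 17.5, 14.2 and 19.0 FPKM in MUT. The HET libraries of *Des* lay above the other 6, as at 0.689% of the loci (70 of 10164). In MUT minus HET, *Des* was at -0.28 (unadjusted p=0.0417, adjusted p=0.738 in limma). It was at 0.35 in HET minus WT (unadjusted p=0.0152, adjusted p=0.998 in limma) and at 0.07 in MUT minus WT (unadjusted p=0.632 in limma). The order with HET highest was picked out after the values were seen. *Des* was highest in HET-3, the library with skeletal muscle RNA. Summed smooth muscle markers, 8 genes with *Des* among them, ran from 181 to 242 FPKM in HET and from 156 to 189 FPKM in the other libraries, and summed stromal markers, 12 genes, from 1053 to 1176 FPKM in HET, 950 to 1170 in WT and 1183 to 1327 in MUT. Their part in the *Vim* values was not tested.

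The proteins that tie filaments to junctions and to the nucleus gave no call either. Of 17 linker genes, 16 were found and 8 passed the minimum. In MUT minus HET 7 of these 8 lay above 0, as did 45.9% of all loci. Their median log2 fold change was 0.17, against -0.02 for all loci. They ran from -0.27 for *Tchp*, a keratin-binding protein, to 0.21 for *Plec*, the cross-linker plectin. By number, the 16 linker loci summed to 143, 114 and 111 FPKM in MUT, 110, 114 and 107 in HET, and 135, 109 and 102 in WT. MUT-1 was thus the highest library, and the other MUT sums were close to those of HET. Whether the 8 fold changes rest on MUT-1 was not tested. Desmoplakin (*Dsp*), plakoglobin (*Jup*) and plakophilin 4 (*Pkp4*) are also in this list. None of the 8 had an unadjusted p under 0.05, and the lowest adjusted p was 0.738 (limma). Of 16 lamin-binding, inner nuclear membrane and nucleus-cytoskeleton linker genes, 13 loci passed the minimum, 7 above and 6 below 0, with a median of 0.01, from -0.26 for *Banf1* to 0.25 for the joint locus of *Syne2* and *Mir5101*. All 6 genes for the farnesylation and trimming of lamins were tested, 2 above and 4 below 0, with a median of -0.04, from -0.20 for *Rce1* to 0.08 for *Narf*. The lamin processing protease gene *Zmpste24*, which cuts prelamin A, had 22.1±1.25 FPKM in MUT and 22.2±2.63 in HET.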

How the data were processed

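Bulk RNA-seq libraries of whole E15.5 mouse kidneys (TruSeq Stranded mRNA kit, Illumina NextSeq) came from 3 separate crosses, with 3 kidneys per genotype. The study's methods call the 3 kidneys of a genotype biological replicates. Whether each came from an embryo of its own is not given in the sources used here. The limma p-values set a difference against the spread between these kidneys within a genotype. They do not cover the spread between embryos if kidneys share an embryo. After alignment (STAR) and transcript assembly (Cufflinks), the authors computed FPKM per locus with Cuffdiff and deposited them. The build is mm10 in the submitters' processing notes, and tool versions, the annotation and the treatment of strand in counting are not given in the sources used here. The deposited FPKM were used as they are. No counting error can be given, and 3 libraries per genotype set the precision.

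Loci whose mean reached 5 FPKM in 1 of the genotypes compared, the minimum of the study's methods, were tested on log2(FPKM + 1), which understates the change of low genes. Linear models (limma 3.58.1, R 4.3.3, eBayes with its trend option) were fitted to the libraries of the 2 genotypes compared, or to all 9 for a moderated F test, two-sided, with Benjamini-Hochberg adjustment over all loci and a threshold of 0.05. Confidence intervals are at 95% and not adjusted. Single values were also tested by exact permutation of libraries. Ratios of members were computed per library and are given without p-values. Correlations used exact permutation of pairings. Loci were matched to GENCODE M21, and start regions came from RefSeq, which had a window for 7 of the 8 genes. No protein sequence was used.

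The 8 genes and all gene lists were chosen with earlier results of these data known. Genes named besides the members are *Ntn1*, *Foxd1*, the 2 loci most like each member, and the extremes of each list in MUT minus HET. *Krt7*, *Dsp*, *Jup*, *Pkp4*, *Zmpste24*, *Krt16*, *Krt80* and *Prph*, and the values of *Krt19* and *Des* by library, were chosen after their values were seen. Alternatives were other pseudocounts (0.1 and 3), other minimums (none and 1 FPKM), median-ratio rescaling, quantile normalization, a GC and length correction (for 95.9% of loci), all 9 libraries in 1 fit, no trend, the replicate number as a block, and each library left out. The steps were tested on simulated data. Tables and figures used Python 3.11.15, numpy 2.4.6, pandas 2.3.3, scipy 1.17.1 and matplotlib 3.10.9.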

Additional observations from a re-analysis of the deposited data

How the results depend on the processing

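No filament gene passed the adjusted threshold under any alternative. Of 357 refitted log2 fold changes of the 7 tested genes, 331 kept their sign and 26 turned it. The loci called, 0 in each test, stayed 0 under every alternative that kept all libraries, the replicate block included. Leaving out 1 library gave between 0 and 3 in each pairwise comparison and between 0 and 1 in the F test. Without HET-2 and HET-3, a choice made after seeing the data, the counts were 5 in MUT minus HET, 46 in HET minus WT and 1 in the F test. These fits hold 1 HET library, which is assumed to vary like the other genotypes. Without WT-2 and MUT-3 they were 32 in MUT minus WT and 2 in the F test. The cause was not tested.

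*Vim* in MUT minus HET kept its sign throughout, from -0.44 to -0.31 with 1 library left out and from -0.38 to -0.29 otherwise, with adjusted p from 0.201 to 0.999. Its unadjusted p (limma) was above 0.05 without HET-1, HET-2 or MUT-2, without HET-2 and HET-3 together, and with the block. Signs turned for *Lmna* in MUT minus HET under median-ratio rescaling (0.00286) and without HET-2 and HET-3 (0.08), for *Krt8* in MUT minus HET under quantile normalization (0.036) and the GC and length correction (0.042), and for *Lmnb1* in MUT minus HET without HET-2 and HET-3 (-0.048). They also turned for *Krt18* in MUT minus WT under the GC and length correction (-0.00701) and without WT-2 and MUT-3 (-0.02), for *Lmnb2* in MUT minus WT (-0.043) and *Nes* in HET minus WT (0.014) under the GC and length correction. With 1 or 2 libraries left out, the range was -0.11 to 0.13 for *Lmna*, -0.12 (without HET-2 and HET-3) to 0.048 for *Krt8* and -0.048 (without HET-2 and HET-3) to 0.12 for *Lmnb1* in MUT minus HET, -0.13 to 0.12 for *Krt18*, -0.086 to 0.077 for *Lmnb2* and -0.0088 to 0.21 for *Lmnb1* in MUT minus WT, and -0.013 to 0.22 for *Lmna*, -0.028 to 0.16 for *Lmnb1* and -0.092 to 0.015 for *Nes* in HET minus WT.

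The labels do not say what a replicate number marks. Deviations from the genotype means were not shared by HET and MUT libraries of the same number (r -0.31, 0.05 and -0.13 across loci). For WT and MUT, r was 0.63, -0.29 and 0.0014 for the same number, and 0.57 for WT-2 with MUT-3 and -0.62 for WT-1 with MUT-3. For WT and HET it was -0.18, -0.05 and 0.19. With the replicate number as a block, *Vim* in MUT minus HET was at -0.38 (standard error 0.19, unadjusted p=0.0708 and adjusted p=0.933 in limma), loci at an unadjusted p under 0.05 went from 636 to 494, and loci called stayed at 0. FPKM hold no counts, so the error that depth adds to a low gene such as *Synm* could not be computed.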

Other observations

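*Krt80*, a keratin whose mean stayed under the minimum of 5 FPKM and which was therefore not tested with the other genes, was picked out after its values were seen. It had 0.971, 1.06 and 0.808 FPKM in WT, 1.21, 1.55 and 1.24 FPKM in HET, and 2.57, 2.09 and 2.05 FPKM in MUT. The 3 genotypes did not overlap, and the share of loci with this full separation was not counted. Among the 13112 loci whose mean reached 1 FPKM in a genotype, 0.419% (55) had all MUT libraries above the other 6. With the minimum at 1 FPKM, *Krt80* had a log2 fold change of 0.47 in MUT minus HET (standard error 0.12, unadjusted p=0.00393, adjusted p=0.775 in limma) and of 0.73 in MUT minus WT (standard error 0.12, unadjusted p=0.000129, adjusted p=0.556 in limma). It took rank 3 of 12984 loci by p in MUT minus WT, and no locus passed the adjusted threshold there.

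*Prph*, which encodes the peripheral nerve filament peripherin, had 3.29 FPKM in HET-2, 0.717 FPKM in HET-3 and between 0.217 and 0.646 FPKM in the other 7 libraries. In HET-2 the 8 markers of nerve, glia and adrenal medulla summed to 29.0 FPKM, against 11.2 to 18.2 FPKM elsewhere. Of 7 listed erythroid genes 6 were found, at 7 loci. These loci summed to 3475 FPKM in HET-2, against 1908 to 2286 FPKM elsewhere. The *Prph* values were seen first and were not tested.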
